A study of Mus musculus with 4 samples.

Results

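Rag1, Rag2 and Dntt encode the enzymes that cut and diversify antigen receptor genes, and their transcriptional output was examined in double positive (DP) thymocytes with and without Tox4. They were taken as the rows of the deposited fragment count table that carry these gene names, which gave 3 of 24984 genes. All 3 had a mean of at least 1 CPM, the usual depth-scaled count, computed here from the library totals, as did 11625 genes of the table. The readout was TTchem-seq, in which RNA made during a pulse of 4-thiouridine is fragmented, captured and sequenced. The length deposited with each of the 3 genes is its whole span, introns included, and values were read here as fragments over that span. The methods name a counting step over exons, so whether intronic fragments were counted is uncertain, and levels per length rest on the deposited length.

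The 2 WT libraries were from mice with the label Tox4;F/F, which carry floxed Tox4 and no Cre. The 2 cKO libraries were from Tox4;F/F;Lck+ mice, in which Cre removes exons 4 to 6 of the same floxed gene. By the study's methods, Cre was driven by the proximal Lck promoter and acted from the DN3 stage of thymocyte development onward, the mice were on a C57BL/6 background, and littermates of the same sex and 6 to 8 weeks of age were used. Cells of both genotypes were kept in culture for 0.5 hr before labelling. How they were purified for this assay is not given in the sources used here; for other assays of the study DP cells were sorted by flow cytometry or selected with CD4 beads, and CD4 is also carried by mature single positive thymocytes. In bulk libraries of this kind, fewer cells of a type and less RNA per cell cannot be told apart.

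RAG1 and RAG2 form the recombinase that cuts DNA at recombination signal sequences beside V, D and J segments, with RAG1 carrying the catalytic residues and RAG2 acting as its cofactor. The breaks are closed by non-homologous end joining, and terminal deoxynucleotidyl transferase, the product of Dntt, adds untemplated nucleotides to the ends before they are joined. DP thymocytes are the stage at which Tcra is rearranged, and they express all 3 genes. Rag1 and Rag2 are neighbours that point towards each other, whereas Dntt lies on another chromosome.

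In build GRCm38, Rag1 spans chr2:101638252-101649532 on the minus strand, a length of 11281 bp of which 59.1% is exonic in the RefSeq annotation. Rag2 spans chr2:101624712-101632528 on the plus strand, a length of 7817 bp of which 46.2% is exonic. A gap of 5.72 kb separates their 3' ends, and their starts are 24.8 kb apart. Dntt spans chr19:41029275-41059525 on the plus strand, a length of 30251 bp of which 7.04% is exonic. Introns therefore make up most of the span of Dntt and the smaller part of that of Rag1.

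The 250 bases upstream of each start are printed 5' to 3' on the strand of the gene because the neighbours Rag1 and Rag2 are compared below and start from separate promoters. Each sequence is from RefSeq, build GRCm38.p6, where all 3 genes were matched. Capitals mark matches on either strand to the E-box CANNTG, bound by basic helix-loop-helix proteins such as E2A and HEB, and to TGTGGT, the core bound by RUNX proteins. The windows are chr2:101649533-101649782 on the minus strand for Rag1, chr2:101624462-101624711 on the plus strand for Rag2 and chr19:41029025-41029274 on the plus strand for Dntt.

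Rag1 promoter: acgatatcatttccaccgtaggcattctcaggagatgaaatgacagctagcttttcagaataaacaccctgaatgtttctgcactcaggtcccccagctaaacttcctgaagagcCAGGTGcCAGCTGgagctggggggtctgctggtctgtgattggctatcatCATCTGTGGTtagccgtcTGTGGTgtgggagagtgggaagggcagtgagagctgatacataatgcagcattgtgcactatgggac
Rag2 promoter: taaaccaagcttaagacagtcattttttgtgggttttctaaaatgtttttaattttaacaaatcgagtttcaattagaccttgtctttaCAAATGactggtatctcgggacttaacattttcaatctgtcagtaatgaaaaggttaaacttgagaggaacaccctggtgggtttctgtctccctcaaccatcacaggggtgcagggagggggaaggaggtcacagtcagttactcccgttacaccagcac
Dntt promoter: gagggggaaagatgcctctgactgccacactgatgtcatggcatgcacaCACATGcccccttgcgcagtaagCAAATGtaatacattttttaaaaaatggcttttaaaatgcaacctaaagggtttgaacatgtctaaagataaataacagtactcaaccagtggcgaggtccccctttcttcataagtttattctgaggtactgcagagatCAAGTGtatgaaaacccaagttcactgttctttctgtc

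The Rag1 window held 3 E-box matches and 2 RUNX matches, and the capitals of CATCTGTGGT are an E-box and a RUNX match that overlap. The Rag2 window held 1 E-box match and the Dntt window held 3, and neither held TGTGGT. Among 32851 promoters of the same length, 66.2% held an E-box match, 14% held TGTGGT and 1.27% held at least 2 matches to TGTGGT. The Rag2 window alone of the 3 held AGGTCA, the letters bound by a number of nuclear receptors, which 14% of promoters held. The Dntt window alone held GATAA, bound by GATA factors and present in 22.6% of promoters, and none of the 3 held TATAA, present in 22.8%. The GC content was 50.8% for Rag1, 41.2% for Rag2 and 41.6% for Dntt, against a median of 52.4% over all promoters.

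The libraries held between 38429786 and 48690591 fragments. Tox4 stood at 74.0 and 70.3 CPM in WT against 59.3 and 57.2 CPM in cKO, a change of -0.31 on the log2 scale with an SE of 0.0998 (DESeq2 adjusted p = 0.0453, called in 4 of 14 alternative settings), and its count also covers the parts that Cre leaves in place. WT replicate 1 stood apart from the other 3 libraries in Xist, at 172 CPM against at most 2.36 CPM. Xist is transcribed in female cells, so by this marker the 2 WT libraries differed in sex, unlike the matching stated in the methods. The tests of the members, their ratios and the called genes named were therefore also run without WT replicate 1. Of the 10 markers of rearranging DP cells, Cd4 was at 621 to 715 CPM and Cd8a at 383 to 629 CPM over the 4 libraries. The pre-B cell genes Vpreb1 and Igll1, markers of the other lymphocytes that rearrange receptor genes, were at or under 0.0938 CPM in every library. The highest of the 8 B cell markers were Ebf1, at 7.11 to 8.21 CPM, and Cd79b, at 2.31 to 4.90 CPM.

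Per kb of the deposited length, Rag1 had the highest level of the 3. It reached 81.3 and 104 CPM per kb in WT against 78.2 and 71.1 CPM per kb in cKO, and by this level it ranked between 50 and 59 of 11625 genes. Dntt reached 8.20 and 9.33 CPM per kb in WT against 10.6 and 9.25 CPM per kb in cKO, with ranks between 604 and 864. Rag2 was lowest, at 4.71 and 6.01 CPM per kb in WT against 5.91 and 5.32 CPM per kb in cKO, with ranks between 1313 and 1797. On this scale the order Rag1, Dntt, Rag2 was the same in all 4 libraries, and the lowest value of each gene lay above the highest of the next. The order of Rag1 and Dntt depends on the length used. Per kb of exonic length, a scale added after seeing the data, Rag1 was at 138 and 175 CPM in WT and 132 and 120 CPM in cKO, and Dntt at 116 and 133 CPM in WT and 151 and 131 CPM in cKO. Rag1 was then above Dntt in both WT libraries and below it in both cKO libraries, and Rag2 remained lowest, at 10.2 to 13.0 CPM.

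Rag1 output was lower in cKO than in WT cells, by a small margin. Rag1 was counted by 39117.5 and 56922.5 fragments in the WT libraries and by 33892 and 31886 fragments in the cKO libraries, that is, at 918 and 1169 CPM against 882 and 802 CPM. Both cKO libraries lay below both WT libraries, which was so for 24.0% of the genes tested. The means were 1043 ± 178 CPM in WT and 842 ± 56.5 CPM in cKO (SD, n = 2 each), and the gap of 251 CPM between the WT libraries was wider than the 201 CPM between the means.

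The log2 fold change of Rag1 was -0.31 (SE 0.102, 95% interval -0.51 to -0.11), or 1.24-fold lower, with a DESeq2 adjusted p of 0.0499. Rag1 thus passed the threshold used here, an adjusted p under 0.05 with a change of at least 1.2-fold, and 1.57% of the 11625 genes were called lower. The call did not hold with edgeR, where the log2 fold change was -0.32 and the adjusted p 0.254, and where 0.654% of genes were called in either direction. Leaving out WT replicate 1 gave -0.49 (DESeq2 adjusted p = 2.42e-05), and leaving out WT replicate 2 gave -0.12 (DESeq2 adjusted p = 0.767). Of 14 alternative settings, the call held in 2, and the direction was the same in all 14.

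Rag2 did not pass the test. Its level was 36.9 and 47.0 CPM in WT against 46.2 and 41.5 CPM in cKO, from 1571, 2289, 1774 and 1652 fragments. Both cKO libraries lay between the WT libraries. The means were 41.9 ± 7.18 CPM in WT and 43.9 ± 3.26 CPM in cKO (SD, n = 2 each), the log2 fold change was 0.06 (SE 0.138, 95% interval -0.21 to 0.33), and the DESeq2 adjusted p was 0.914. The interval holds changes of either sign, and leaving out WT replicate 1 gave -0.11 in log2 where leaving out WT replicate 2 gave 0.25.

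Dntt did not pass the test either. Its level was 248 and 282 CPM in WT against 321 and 280 CPM in cKO, from 10573, 13746, 12341 and 11130 fragments. The second cKO library lay just under the second WT library, so the groups overlapped. The means were 265 ± 24.2 CPM in WT and 300.5 ± 29.1 CPM in cKO (SD, n = 2 each), with a log2 fold change of 0.18 (SE 0.0935, 95% interval -0.01 to 0.36) and a DESeq2 adjusted p of 0.381. The log2 fold change of Dntt was positive in 14 of 14 alternative settings, from 0.08 to 0.28, and was called in 0 of them.

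**Figure D1:**
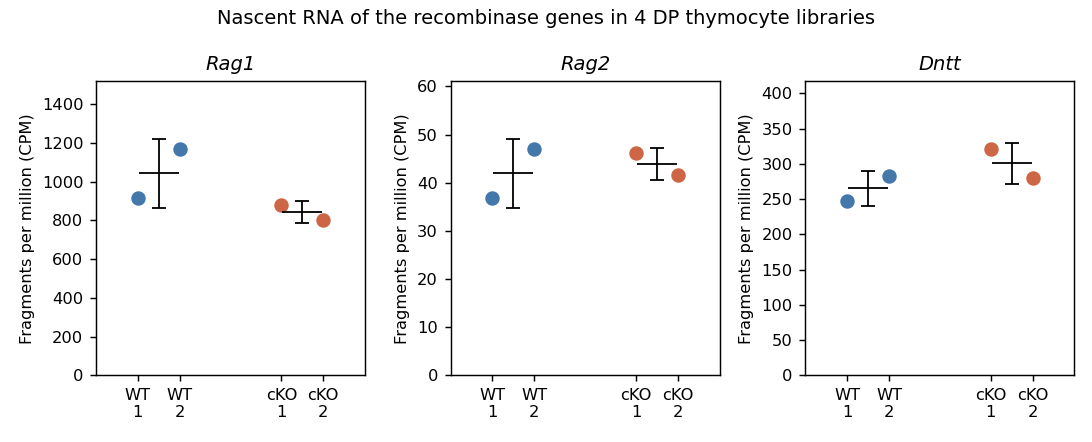
Level in CPM (linear axes from 0) of Rag1, Rag2 and Dntt in each library. Points are the 2 WT (blue) and 2 cKO (orange) libraries, and the black line and bar are the mean ± SD. Both cKO points for Rag1 lie below both WT points, whereas the points of Rag2 and of Dntt overlap between the genotypes.

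The neighbours Rag1 and Rag2 were then compared with each other within each library, where the ratio of their fragments does not depend on how libraries are scaled. There were 24.9 Rag1 fragments for each Rag2 fragment in WT replicate 1 (95% counting interval 23.7 to 26.2) and 24.9 in WT replicate 2 (23.9 to 25.9). There were 19.1 in cKO replicate 1 (18.2 to 20.04) and 19.3 in cKO replicate 2 (18.4 to 20.3). The WT libraries gave the same ratio to 3 digits, the cKO libraries gave nearly the same lower ratio, and no interval of a WT library met that of a cKO library. Divided by the deposited lengths of the genes, the ratio was 17.3 and 17.2 in WT and 13.2 and 13.4 in cKO.

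On the log2 scale the Rag1 to Rag2 ratio was 4.64 (SD 0.0013) in WT and 4.26 (SD 0.010) in cKO, a difference of -0.37, or 1.296-fold. An exact two-sided permutation test over the 4 libraries gave p = 0.33, which is the smallest value that 2 against 2 allows, and 0.33 after adjustment over the 3 ratios tested. With any 1 library left out, the difference was between -0.38 and -0.37. The intervals, from Wilson intervals of the share of Rag1 in the fragments of both genes, cover counting error only, since amplified fragments without molecular identifiers are not independent molecules. The difference between the WT libraries, 0.0019 on the log2 scale, was far smaller than these intervals.

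The narrow spread of the ratio came with large shifts of both genes together. From WT replicate 1 to WT replicate 2, Rag1 differed by 0.35 and Rag2 by 0.35 in log2 CPM, while Dntt differed by 0.19 and the gene that overlaps Rag2, B230118H07Rik, by -0.21. From cKO replicate 2 to cKO replicate 1, the values were 0.14 for Rag1, 0.15 for Rag2, 0.20 for Dntt and -0.0048 for B230118H07Rik. Within a genotype, therefore, Rag1 and Rag2 moved by nearly the same factor, and between genotypes they did not.

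Other pairs of neighbours give a scale for these values. There were 1122 pairs of genes that point towards each other across a gap of at most 20 kb, without overlap and with both genes at a mean of at least 1 CPM. The ratio of the 2 genes differed between the WT libraries by 0.19 in log2 at the median. Rag1 and Rag2 were among the 5 pairs with the smallest difference. Between the cKO libraries the median difference was 0.20, and Rag1 and Rag2 were among the 44 pairs with the smallest difference. The ratios of the genotypes did not overlap in 45.9% of the pairs, so the separation by itself is common.

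Over all these pairs the median shift of the ratio between genotypes was 0.20. The shift of Rag1 and Rag2 was met or passed by 24.3% of the pairs, Rag1 and Rag2 included. Many of these pairs hold weakly counted genes. Among the 346 pairs with both genes at a mean of at least 20 CPM, as for Rag1 and Rag2, the median shift was 0.13. Rag1 and Rag2 were among the 25 pairs (7.23%) with the largest shift.

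The ratios to Dntt, which lies on another chromosome, were more variable between replicates. There were 3.70 and 4.14 Rag1 fragments for each Dntt fragment in WT against 2.75 and 2.86 in cKO, a log2 difference of -0.48. The genotypes did not overlap in this ratio, and the exact two-sided permutation p was 0.33, the smallest possible. For each Dntt fragment there were 0.149 and 0.167 Rag2 fragments in WT and 0.144 and 0.148 in cKO, a log2 difference of -0.11 with the same exact permutation p of 0.33. The counting intervals of the lower WT library and of both cKO libraries overlapped, and without WT replicate 2 the difference was -0.02, so the Rag2 to Dntt ratio was not told apart between the genotypes at this depth.

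**Figure D2:**
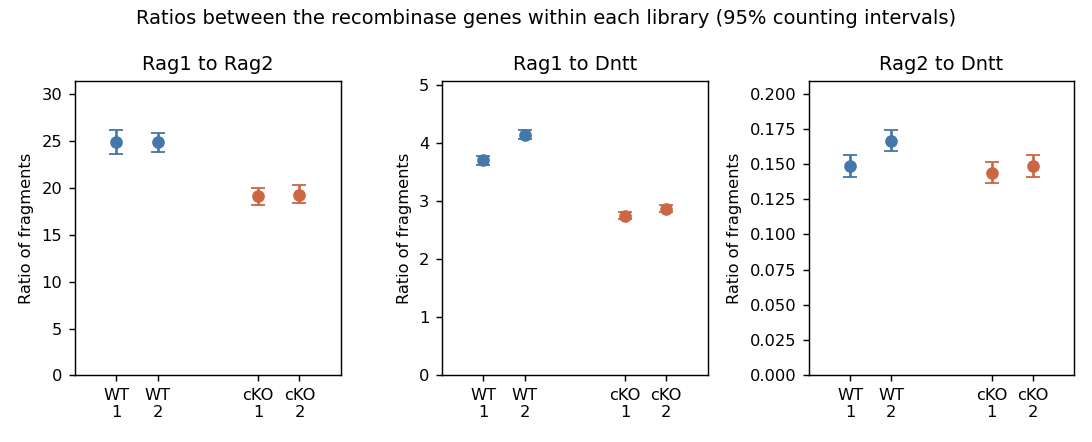
Ratio of the fragments of Rag1 to Rag2, Rag1 to Dntt and Rag2 to Dntt within each of the 2 WT (blue) and 2 cKO (orange) libraries, on linear axes from 0. Bars are 95% counting intervals. The Rag1 to Rag2 ratio was 24.9 in both WT libraries against 19.1 and 19.3 in the cKO libraries, and the Rag2 to Dntt ratios of the genotypes lie close together.

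Around the Rag genes, no neighbour within 100 kb was called. B230118H07Rik, also named Iftap or NWC in RefSeq, starts inside Rag2 on the minus strand and overlaps it by 4.32 kb. It was at 149 and 130 CPM in WT and at 135 and 135 CPM in cKO, with a log2 fold change of -0.05 (DESeq2 adjusted p = 0.897). The libraries keep the strand, but the sources used here do not give the strand setting of the count, so the split of fragments between Rag2 and B230118H07Rik is uncertain. Traf6, a ubiquitin ligase of receptor signalling that lies 28.9 kb from Rag1, was at 128 and 134 CPM in WT and at 122 and 125 CPM in cKO (log2 fold change -0.09). Prr5l, 64.8 kb from Rag1, was at 2.76 to 3.41 CPM (log2 fold change -0.19).

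Next to Dntt, the long non-coding RNA gene C330026H20Rik increased in cKO cells. It spans chr19:41005013-41011678 on the minus strand, and its start lies 17.6 kb from that of Dntt, with the 2 genes pointing away from each other. It was counted by 434 and 459 fragments in WT and by 848 and 989 fragments in cKO, at 10.2 and 9.43 CPM against 22.1 and 24.9 CPM. Both cKO libraries were more than 2-fold above both WT libraries, whereas the Dntt libraries overlapped.

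The log2 fold change of C330026H20Rik was 1.26 (SE 0.170), or 2.39-fold, with a DESeq2 adjusted p of 9.94e-11 and an edgeR adjusted p of 0.0213. It was called in 14 of 14 alternative settings, with log2 fold changes from 1.16 to 1.35. By DESeq2, 2.14% of genes were called higher, and among those 249 genes it ranked 11 by adjusted p and 16 by log2 fold change. What the transcript does in thymocytes is not given in the sources used here.

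The other genes near Dntt were weakly counted. Blnk, an adaptor of the B cell receptor, was at 9.31 and 5.46 CPM in WT and at 11.7 and 11.1 CPM in cKO (log2 fold change 0.62, SE 0.258, DESeq2 adjusted p = 0.185). Tll2, a metalloprotease gene, was at 2.46 and 1.93 CPM in WT and at 4.32 and 2.59 CPM in cKO (log2 fold change 0.65, DESeq2 adjusted p = 0.507). Opalin, which lies 2.43 kb from the end of Dntt, had 0 or 1 fragment in a library. All 3 of these genes lie on the minus strand, and neither Blnk nor Tll2 passed the test.

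**Figure D3:**
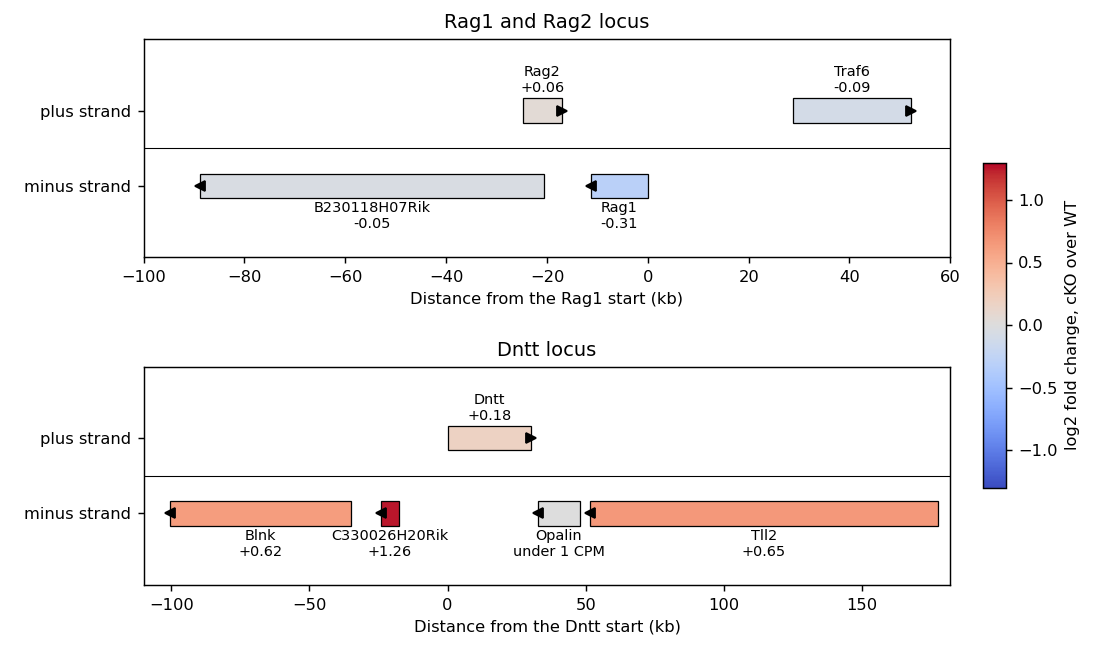
Genes around Rag1 and Rag2 (top) and Dntt (bottom), drawn to scale by distance in kb from the start of Rag1 or Dntt, without Prr5l. Boxes above the line are on the plus strand, arrowheads give the direction of transcription, and colour and number give the log2 fold change of cKO over WT. Rag1 (-0.31) and Rag2 (0.06) point towards each other, and C330026H20Rik, upstream of Dntt, has the highest value drawn (1.26).

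The other genes of V(D)J recombination mostly did not pass the same test. Of 39 genes in 5 lists, 38 were tested, of which 3 were called higher, 1 was called lower and 34 were not called, beside 3.71% called in either direction over all genes. Their median log2 fold change was 0.08, against 0.00 over all genes tested.

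Of the cofactors that bend DNA for the RAG proteins, 0 of 2 were called. Hmgb1 was at 140 and 176 CPM in WT and at 151 and 156 CPM in cKO (log2 fold change -0.04), and Hmgb2 at 34.1 and 63.9 CPM in WT and at 56.6 and 47.5 CPM in cKO (0.08). Of the 4 genes that mark RAG proteins for turnover, 0 were called. Among them, Ddb1 and Cul4a, parts of a ubiquitin ligase that acts on RAG1, had log2 fold changes of -0.08 and 0.01.

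Of 9 end joining genes tested, 2 rose and 0 fell. Xrcc6, which encodes the Ku70 subunit that binds broken ends, was at 292 and 308 CPM in WT and at 391 and 410 CPM in cKO. Its log2 fold change was 0.41 (SE 0.0763, DESeq2 adjusted p = 1.03e-05), called in 13 of 14 alternative settings but not without cKO replicate 2. Lig4, the ligase that seals the ends, was at 49.3 and 57.8 CPM in WT and at 70.0 and 71.2 CPM in cKO. Its log2 fold change was 0.40 (SE 0.113, DESeq2 adjusted p = 0.0154), called in 7 of 14 settings, and neither by edgeR (adjusted p = 0.126) nor when WT replicate 1, cKO replicate 1 or cKO replicate 2 was left out. Xrcc5, which encodes Ku80, the partner of Ku70, had a log2 fold change of -0.10 and was not called, nor was Dclre1c, the Artemis nuclease that opens the hairpin ends left by RAG (-0.21, DESeq2 adjusted p = 0.177).

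Of 8 genes of the break response, 0 were called, and the most abundantly counted, Trp53bp1 and Rif1, which protect broken ends, had log2 fold changes of 0.15 and 0.16. Of 15 transcription regulators linked to Rag or Dntt, 1 rose and 1 fell. Myb, a regulator of DP thymocyte survival and gene expression, was at 579 and 584 CPM in WT and at 807 and 844 CPM in cKO. Its log2 fold change was 0.50 (SE 0.0698, DESeq2 adjusted p = 3.91e-10), and it was called in 14 of 14 alternative settings.

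Tcf7, which encodes the T cell factor TCF-1, was at 4019 and 4236 CPM in WT and at 3679 and 2919 CPM in cKO, a change of -0.33 in log2 with an SE of 0.0943 (DESeq2 adjusted p = 0.0174). It was called in 7 of 14 alternative settings, and the call was lost with edgeR, with limma voom, with the replicate block in DESeq2 or edgeR, and when WT replicate 1, WT replicate 2 or cKO replicate 2 was left out. Its change was -0.49 in log2 when cKO replicate 1 was left out and -0.17 when cKO replicate 2 was. Tcf12, which encodes the E-box protein HEB, had an adjusted p of 0.0160 by DESeq2 but a log2 fold change of 0.23, which is under the fold required. Satb1, the chromatin organiser of the Rag locus in DP thymocytes, was at 5702 to 6276 CPM (log2 fold change -0.06) and Ets1 at 4155 to 4860 CPM (0.16), and neither was called. Tcf3, the gene of E2A, had a log2 fold change of -0.04 and was also not called.

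**Figure D4:**
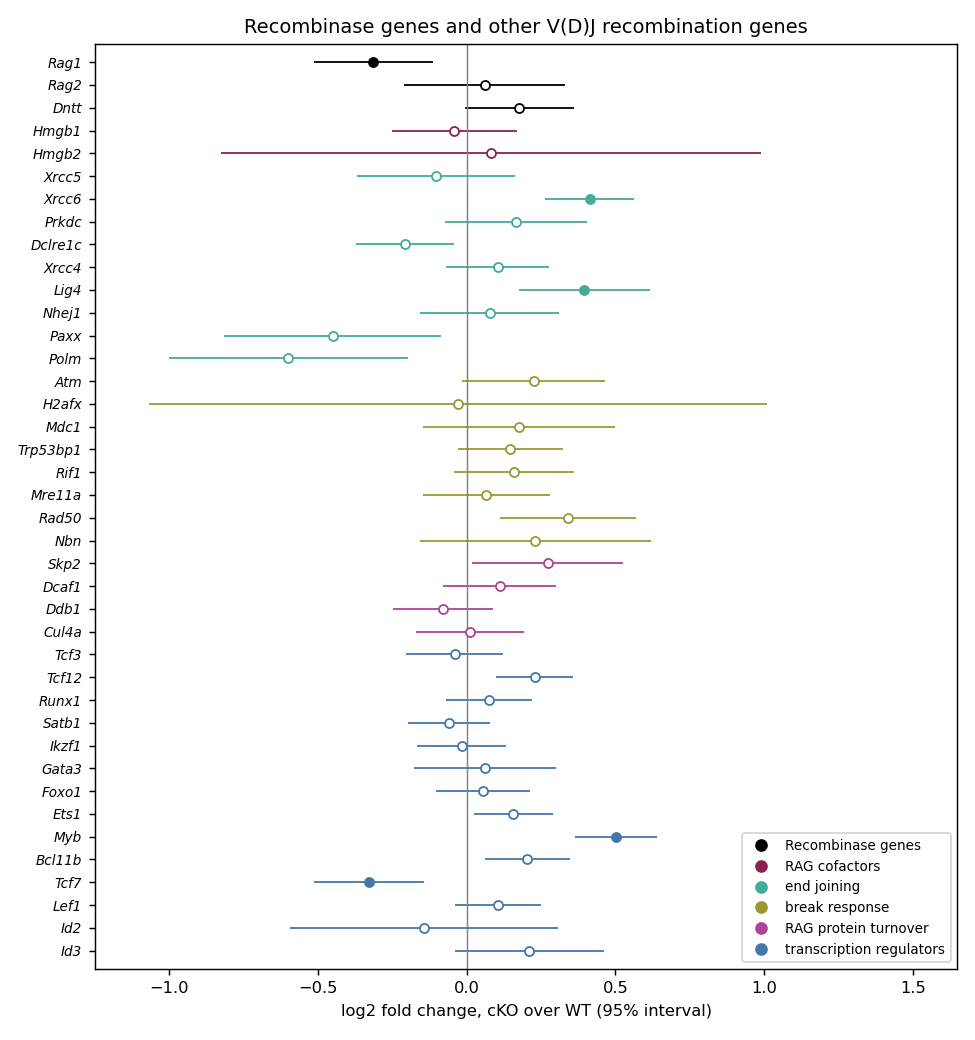
Log2 fold change of cKO over WT with its 95% interval for Rag1, Rag2, Dntt and other genes of V(D)J recombination with a mean of at least 1 CPM, coloured by list. Filled points were called by DESeq2 and open points were not. Rag1 and Tcf7 are the called genes to the left of 0, and Xrcc6, Lig4 and Myb those to the right.

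Markers of thymocyte stages were read beside Rag1, since output of the Rag genes depends on stage. Over 10 markers of rearranging DP cells, the summed level was 3920 and 4656 CPM in WT and 4401 and 4213 CPM in cKO, and 1 of 10 was called, Cd8a, which fell by 0.54 on the log2 scale (DESeq2 adjusted p = 1.21e-05). Cd8a was not called by edgeR (adjusted p = 0.0887), and leaving out WT replicate 1 moved it to -0.71, leaving out WT replicate 2 to -0.35 in log2. Like Rag1, Cd8a was higher in WT replicate 2 than in WT replicate 1, at 629 against 498 CPM. Over 8 markers of proliferating cells, the sum was 268 and 462 CPM in WT and 559 and 448 CPM in cKO, and 0 of 8 were called by DESeq2, with all 8 higher in cKO and a median log2 fold change of 0.40. WT replicate 1 had the lowest sum of the 4 libraries.

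Over 8 markers of mature single positive cells, the sum was 533 and 524 CPM in WT and 529 and 456 CPM in cKO, and Il7r was called higher and Ccr7 lower by DESeq2, in 6 and 8 of 14 alternative settings and by edgeR in neither case. Over 5 markers of double negative cells, the sum was 89.9 and 85.9 CPM in WT and 119 and 131 CPM in cKO, and 1 was called, Notch3, which rose by 1.28 on the log2 scale. Without Notch3 the other 4 summed to 67.4 and 60.5 CPM in WT and 63.8 and 69.0 CPM in cKO, ranges that overlap. The 8 B cell markers summed to 12.2 to 14.3 CPM and the 8 myeloid markers to at most 13.2 CPM, with ranges that overlapped between the genotypes. The myeloid markers did not move together. Cd68, the highest, was at 7.67 and 5.50 CPM in WT and 9.21 and 7.52 CPM in cKO. Itgam was higher in both cKO libraries, at 1.06 and 1.07 CPM in WT against 1.51 and 1.53 CPM in cKO. Lyz2 was lower, at 1.34 and 1.21 CPM in WT against 0.312 and 0.679 CPM in cKO, and Csf1r and Cybb were also lower in both cKO libraries. Erythroid markers summed to at most 0.44 CPM and thymic stroma markers to at most 1.38 CPM. The part of these stage markers in the Rag1 difference was not tested.

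The genes whose levels followed each member most closely over the 4 libraries were looked up among 6507 genes with a mean of at least 20 CPM, by the root mean square difference of log2 CPM after each gene was centred on its mean. For Rag1 these were Gm1821 (0.0333), Rpl13 (0.0378) and Btg2 (0.0396). For Rag2 they were Zfp827 (0.0154), Ppp1r9b (0.0206) and Whrn (0.0212), and for Dntt they were Rest (0.0157), Cbx1 (0.0164) and Lsm6 (0.0198). By the same measure Rag1 lay 0.187 from Rag2 and 0.248 from Dntt, and Rag2 lay 0.0806 from Dntt. Over all 4 libraries, Rag2 thus lay closer to Dntt than to its neighbour Rag1.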

How the data were processed

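As stated in the methods, fastp 0.13.1 was used for read filtering and STAR 2.7.9a for alignment to GRCm38 and for gene counts; the submitters' notes also name featureCounts 1.6.1. The deposited table held expected counts, 8.61% of them fractional, beside gene lengths that for the members are whole spans; the stated counting step covers exons, so which features were counted is uncertain. Duplicates were marked; whether they were left out of the counts, and the strand setting, are not given in the sources used here. The labels describe capture of polyA RNA, the methods capture of labelled RNA with rRNA depletion. Yeast spike-in RNA was added but not used for scaling, so a change shared by all genes cannot be seen.

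Counts were rounded and fitted over the whole table with DESeq2 1.42.0 (R 4.3.3), the study's stated tool, by its default Wald test and size factors. Calls required a Benjamini-Hochberg adjusted p under 0.05, a change of at least 1.2-fold and a mean CPM of at least 1. The alternatives were edgeR 4.0.16 and limma 3.58.1 (voom) on genes whose mean CPM reached 1, other scalings and filters, a replicate block and leaving out each library. Procedures were tested on simulated data. Libraries, of 38429786 to 48690591 fragments, were grouped by title. P-values measure only the spread between these samples, which within genotypes exceeded counting noise (chi-square per degree of freedom of 40.7 in WT and 30.7 in cKO).

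The members and gene lists were chosen with earlier results of these data known. The genes named were Tox4, the 3 members, their neighbours within 100 kb, the 3 closest genes to each member, marker genes that were called or define a cell type, and from each pathway list the called genes and the 2 of highest CPM. Xist, Xrcc5, Tcf12 and Tcf3 were added after their values were seen. Some genes of the lists are counted but not reported here by name.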

Additional observations from a re-analysis of the deposited data

How the results depend on the processing

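The Rag1 change kept its direction in 14 of 14 alternatives but passed the threshold in 2, leaving out WT replicate 1 and leaving out Rn45s. It was -0.31 with a filter of 1 CPM in every library (adjusted p = 0.0582), with TMM factors (0.0580), with total count factors (0.0522), without X and Y genes (0.0512), with independent filtering off (0.0903) and with limma voom (0.253), and -0.32 with edgeR (0.254). With the replicate number as a block it was -0.30 with DESeq2 (adjusted p = 0.257) and -0.31 with edgeR (0.271). The replicate numbers did not pair the libraries: the deviations of same-numbered libraries correlated at -0.03 over 11625 genes. With 1 library left out, the log2 fold change was between -0.49 and -0.12 for Rag1, between -0.11 and 0.25 for Rag2 and between 0.08 and 0.28 for Dntt. Rag2 turned negative without WT replicate 1 (-0.11) and without cKO replicate 1 (-0.0089). Rag2 and Dntt were called under none of the 14.

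Over all genes, 431 were called by DESeq2, against 193 with the replicate block, 76 with edgeR, 96 with edgeR and the block, 73 with limma voom and between 89 and 446 with 1 library left out. The cause was not tested. All 3 fragment ratios kept their sign under 7 of 7 alternatives; with the replicate block the smallest exact permutation p becomes 0.5. With 2 libraries a genotype, no exact test can pass 0.05, and the interval of Rag2, counted by 1571 to 2289 fragments, holds log2 changes from -0.21 to 0.33.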
